A study of Mus musculus with 24 samples.

Results

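The NRF2 antioxidant genes are 10 genes, taken by symbol from the 25941 genes of the deposited count table of mouse thoracic aorta. They are *Nfe2l2*, *Nqo1*, *Gclm*, *Gclc*, *Hmox1*, *Txnrd1*, *Srxn1*, *Osgin1*, *Slc7a11* and *G6pdx*, and all 10 were in the table. Of these, 9 had enough counts to be tested, and *Slc7a11* had not. RNA came from adult male wild-type C57BL/6 mice of 10 to 12 weeks, and the aortas were taken at zeitgeber time 11 (hours after lights on). The 3 groups of 8 libraries had eaten chow for 3 weeks, plain (control), or holding either celecoxib at 100 mg/kg/day or rofecoxib at 50 mg/kg/day. Each drug selectively inhibits COX-2, the inducible cyclooxygenase. Their doses differed, so compound and dose cannot be told apart in the comparison of one drug with the other.

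*Nfe2l2* encodes NRF2, a transcription factor that KEAP1 holds at a low level by marking it for degradation. When electrophiles or oxidants modify KEAP1, NRF2 accumulates, pairs with a small MAF protein and binds antioxidant response elements. Its targets make glutathione, reduce quinones, thioredoxins and peroxiredoxins, degrade haem and supply NADPH. In the vessel wall, NRF2 targets are known to respond to oxidised lipids and to the pattern of blood flow. NRF2 is regulated mainly at the level of the protein, which was not measured here.

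The promoters of the 5 members that passed the test in at least 1 comparison are shown first, to set the letters that NRF2 is known to bind beside the genes that did and did not move together. Each is the RefSeq window of 250 bases before to 50 bases after the gene's start on GRCm38.p6, read 5′ to 3′ on the gene's strand. The windows are chr2:75704614-75704913 (minus strand) for *Nfe2l2*, chr8:107403156-107403455 (minus) for *Nqo1*, chr3:122245307-122245606 (plus) for *Gclm*, chr8:119436897-119437196 (plus) for *Osgin1* and chrX:74428831-74429130 (minus) for *G6pdx*. Capitals mark matches, on either strand, to a core of the antioxidant response element, TGACNNNGC, or to the AP-1 site TGAGTCA.
Nfe2l2: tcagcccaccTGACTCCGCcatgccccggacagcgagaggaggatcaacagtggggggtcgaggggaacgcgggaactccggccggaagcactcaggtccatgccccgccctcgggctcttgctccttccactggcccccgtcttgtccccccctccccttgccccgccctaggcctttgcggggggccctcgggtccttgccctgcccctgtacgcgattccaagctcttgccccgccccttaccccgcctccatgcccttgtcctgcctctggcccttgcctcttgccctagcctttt
Nqo1: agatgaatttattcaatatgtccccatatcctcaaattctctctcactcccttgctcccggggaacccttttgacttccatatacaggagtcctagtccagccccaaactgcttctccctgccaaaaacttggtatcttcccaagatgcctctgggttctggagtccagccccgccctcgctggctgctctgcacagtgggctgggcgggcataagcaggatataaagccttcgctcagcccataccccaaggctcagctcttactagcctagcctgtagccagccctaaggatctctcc
Gclm: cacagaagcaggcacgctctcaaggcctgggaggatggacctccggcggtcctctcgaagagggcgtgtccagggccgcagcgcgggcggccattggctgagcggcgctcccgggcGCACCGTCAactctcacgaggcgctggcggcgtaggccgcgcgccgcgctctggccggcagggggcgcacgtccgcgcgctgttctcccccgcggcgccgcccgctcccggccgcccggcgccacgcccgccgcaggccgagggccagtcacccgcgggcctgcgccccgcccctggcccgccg
Osgin1: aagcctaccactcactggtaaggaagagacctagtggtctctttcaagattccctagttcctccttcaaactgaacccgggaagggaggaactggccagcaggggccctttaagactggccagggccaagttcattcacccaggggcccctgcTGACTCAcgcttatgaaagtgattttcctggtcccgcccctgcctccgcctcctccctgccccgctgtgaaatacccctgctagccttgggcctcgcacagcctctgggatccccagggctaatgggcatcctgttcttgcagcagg
G6pdx: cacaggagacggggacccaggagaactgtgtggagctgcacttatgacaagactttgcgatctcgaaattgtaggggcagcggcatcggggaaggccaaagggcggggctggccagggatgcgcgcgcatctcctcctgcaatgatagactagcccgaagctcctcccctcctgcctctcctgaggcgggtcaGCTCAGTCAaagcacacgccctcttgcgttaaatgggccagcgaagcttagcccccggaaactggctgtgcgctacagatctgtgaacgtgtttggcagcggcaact

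The *Nfe2l2* window held the core at bases -240 to -232 from the start. The *Gclm* window held it on the other strand at -134 to -126, and the *G6pdx* window on the other strand at -57 to -49. The *Osgin1* window held an AP-1 site on the other strand at -97 to -91, and the *Nqo1* window held neither. Among the 8 members with a RefSeq window, 5 held the core, which was in 12.4% of all 32851 windows. The other 2 of those 5 were *Txnrd1*, at 1 of its start sites, and *Srxn1*. The AP-1 site was in 5.2% of all windows and in 2 of the 8 members, *Osgin1* and *Srxn1*. Both percentages count windows, whereas members are counted by gene, and *Txnrd1* had 3 windows. No core overlapped an AP-1 site in a member's window. A match describes the letters only, and the absence of one says only that these letters are not in this window.

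Library totals ran from 21652432 to 21687906 counts. The tissue carried its smooth muscle markers in every library, at a summed 35897 to 54357 CPM (counts relative to library size). Markers of fat were present throughout, since all 10 white and general adipocyte markers were above 0 in every library. Their summed level was 1320 to 5931 CPM in control, 1752 to 3094 with celecoxib and 1664 to 3643 with rofecoxib. Control 6 stood apart at the 5931, and its 10 brown adipocyte markers summed to 1707 CPM, against at most 517 in any drug library. Rofecoxib 7 and 8 stood apart on the GC slope, the slope of a library's gene levels on the GC content of the transcript, at -2.27 and -2.75 log2 CPM per unit GC fraction. The other 6 rofecoxib libraries lay between -1.14 and -0.15, control between -0.80 and 1.36, and celecoxib between -0.59 and 1.86. In bulk tissue, fewer cells of a type and less RNA per cell cannot be told apart.

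Within the aorta the members differed widely in level. Per kilobase of exon, control levels were 37.6 ± 6.5 CPM per kb for *Nfe2l2*, 20.5 ± 3.84 for *G6pdx*, 20.0 ± 2.22 for *Nqo1*, 16.4 ± 1.06 for *Srxn1*, 13.3 ± 0.882 for *Gclc* and 11.9 ± 0.383 for *Txnrd1* (SD, n = 8). Below these came *Hmox1* at 6.91 ± 0.981, *Gclm* at 6.15 ± 0.253, *Osgin1* at 2.95 ± 0.443 and *Slc7a11* at 0.00537. *Nfe2l2* and *G6pdx*, *G6pdx* and *Nqo1*, *Nqo1* and *Srxn1*, *Gclc* and *Txnrd1*, and *Hmox1* and *Gclm* are neighbours whose control libraries overlapped. The order was the same with celecoxib, and with rofecoxib *Nqo1* came before *G6pdx*. Exon lengths are from GENCODE M21.

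Across the members as a set, movement was small and in few genes. A gene is called here at an adjusted p under 0.05 in edgeR's quasi-likelihood test, with Benjamini-Hochberg adjustment over all 14451 genes tested. With celecoxib, 2 of the 9 tested members were lower than in control (*Nqo1* and *Gclm*) and 0 were higher, where 1.41% of all genes were called, 0.498% lower and 0.913% higher. With rofecoxib, 2 of 9 were lower (*Osgin1* and *G6pdx*) and 0 higher, where 5.3% of all genes were called, 2.87% lower and 2.43% higher. Between the drugs, *Nfe2l2* and *Nqo1* were lower with celecoxib and *Osgin1* higher, where 22.7% of all genes were called, 11.2% lower and 11.5% higher. The median log2 fold change of the 9 members was -0.16 for celecoxib against control, -0.03 for rofecoxib against control and -0.05 for celecoxib against rofecoxib, beside -0.01, 0.00 and 0.00 over all genes tested. Over all genes, celecoxib gave 132 called higher and 72 lower against control, and 100 and 83 when library totals took the place of TMM factors. At an unadjusted p under 0.05 there were 5, 4 and 3 of the 9 members, where 17.3%, 27.1% and 36.0% of all genes were. Both drug comparisons use the same 8 control libraries.

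**Figure D1:**
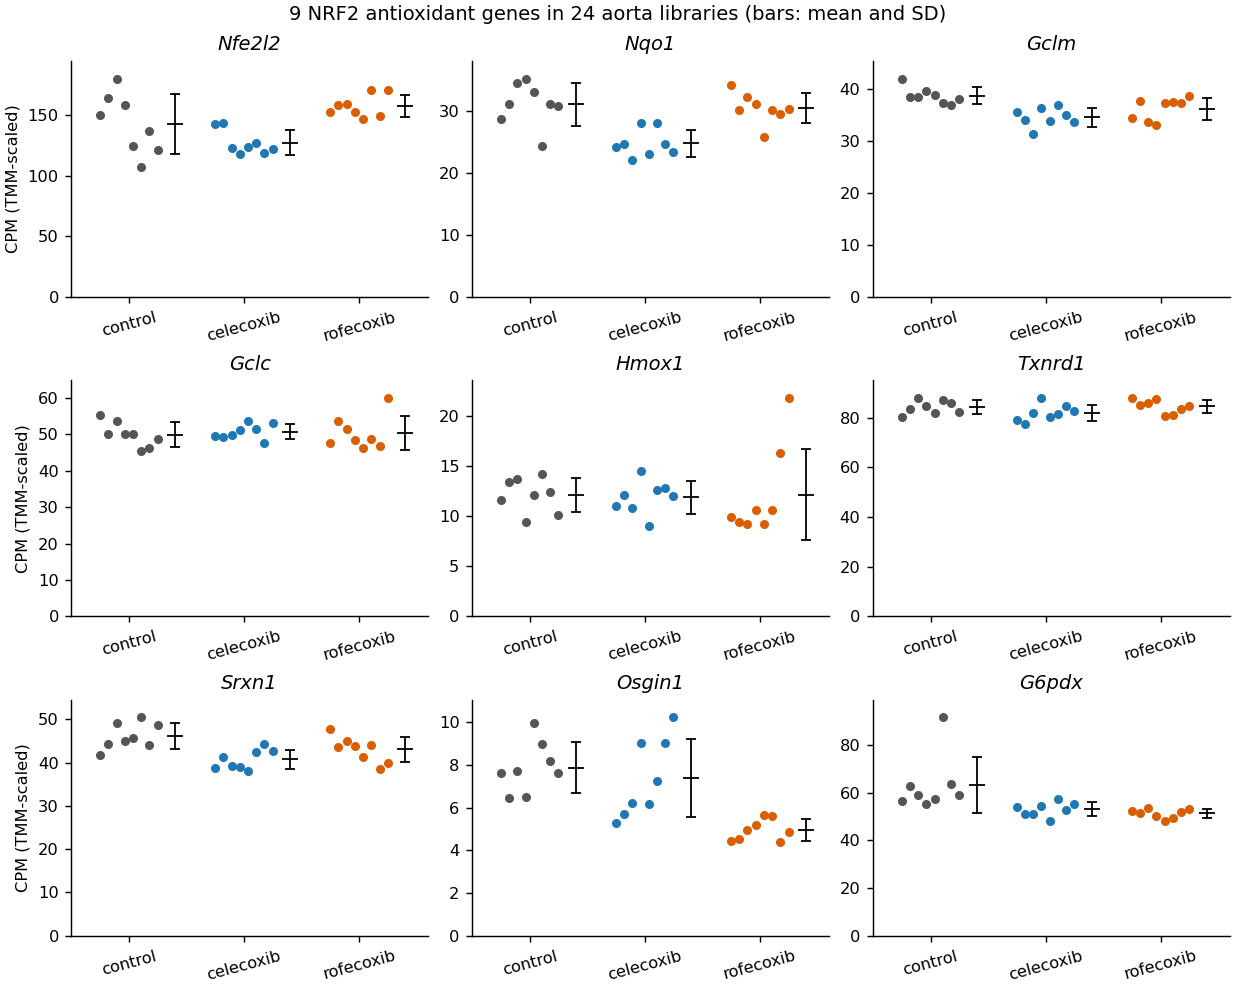
Levels of the 9 tested genes in CPM scaled by TMM, with 1 point per library in the order of replicate number within control (grey), celecoxib (blue) and rofecoxib (orange), and the mean and SD of 8 libraries as a bar beside each group. *Osgin1* and *G6pdx* with rofecoxib lie wholly below control (0.367% of all genes do). *Nfe2l2* with celecoxib lies wholly below rofecoxib (0.858% of all genes do), and control 6 is the high point of *G6pdx* at 91.6 CPM.

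*Nfe2l2*, the gene of NRF2 itself (ENSMUSG00000015839, mm9 chr2:75513368-75542900), was at 108 CPM in the lowest control, 143 at the control median and 180 in the highest. With celecoxib it ran from 118 over a median of 123 to 143 CPM, and with rofecoxib from 147 over 156 to 171 CPM. The drug groups did not overlap each other, and control spanned both. *Nfe2l2* mRNA was 19.2% lower with celecoxib than with rofecoxib (log2 fold change -0.31 ± 0.08 SE, edgeR adjusted p = 0.0094), and groups without overlap in this direction were found in 0.858% of all genes. Against control, the log2 fold change was -0.17 ± 0.08 with celecoxib (adjusted p = 0.278) and 0.14 ± 0.08 with rofecoxib (adjusted p = 0.247), so neither passed the edgeR test. The value between the drugs was -0.30 without rofecoxib 7 and 8 (edgeR adjusted p = 0.035), and -0.24 with an offset for each library's GC curve, which missed the threshold (adjusted p = 0.0581). The reads of a small overlapping gene, *E030042O20Rik*, came to 10 to 26 counts per library beside 2366 to 3931 for *Nfe2l2*.

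*Nqo1*, which encodes the NAD(P)H quinone dehydrogenase and is a widely used readout of NRF2 (ENSMUSG00000003849, mm9 chr8:109911923-109927308), was the member with the smallest adjusted p with celecoxib. Its level was 24.3, 31.1 and 35.2 CPM in the lowest, median and highest control, 22.1, 24.4 and 28.1 with celecoxib, and 25.7, 30.2 and 34.2 with rofecoxib. The highest celecoxib library lay below 7 of the 8 controls, and control 6 was the control that overlapped. *Nqo1* fell by 20.3% with celecoxib against control (log2 fold change -0.33 ± 0.07 SE, edgeR adjusted p = 0.0208). It was 18.6% lower with celecoxib than with rofecoxib (-0.30 ± 0.07, edgeR adjusted p = 0.00518). With rofecoxib against control the log2 fold change was -0.03 (95% interval -0.17 to 0.11, edgeR adjusted p = 0.797). Without control 6 the fall with celecoxib was -0.37 (edgeR adjusted p = 0.00758). Without control 3 or without celecoxib 5 the call was lost (edgeR adjusted p = 0.0517 and 0.0591), and with the GC offset it was kept (-0.30, adjusted p = 0.0385). The difference between the drugs missed the threshold with that offset (-0.23, edgeR adjusted p = 0.0563).

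The glutathione enzymes moved unevenly. *Gclm* encodes the modifier subunit of glutamate-cysteine ligase, the rate-limiting enzyme of glutathione synthesis, and *Gclc* its catalytic subunit. *Gclm* (ENSMUSG00000028124, mm9 chr3:121948273-121973104) ran from 36.8 over a median of 38.4 to 42.0 CPM in control, from 31.3 over 34.5 to 36.9 with celecoxib, and from 33.1 over 37.3 to 38.7 with rofecoxib. Only the edges of control and celecoxib met, and all 8 celecoxib libraries lay below the control mean. *Gclm* fell by 10.7% with celecoxib (log2 fold change -0.16 ± 0.04 SE, edgeR adjusted p = 0.0473). This call was at the threshold: it was lost in 17 of the 24 fits that left out 1 library, with log2 fold changes of -0.18 to -0.14, and with the GC offset (-0.12, edgeR adjusted p = 0.102). With rofecoxib the log2 fold change was -0.10 ± 0.04 (edgeR adjusted p = 0.137), which passed only with that offset (-0.19, adjusted p = 0.022).

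*Gclc* (ENSMUSG00000032350, mm9 chr9:77602140-77642494) was at 50.0 ± 3.32 CPM in control, 50.7 ± 2.05 with celecoxib and 50.4 ± 4.59 with rofecoxib (SD, n = 8). The log2 fold change was 0.02 with celecoxib (95% interval -0.08 to 0.13) and 0.01 with rofecoxib (-0.09 to 0.12), and neither passed the test. *Slc7a11*, the cystine importer that feeds glutathione synthesis (ENSMUSG00000027737, mm9 chr3:50168656-50247737), had 0 to 3 counts in each library and 30 over all 24. At that depth no difference between groups was detectable.

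The thioredoxin branch differed little. *Srxn1* encodes sulfiredoxin, which restores over-oxidised peroxiredoxins (ENSMUSG00000032802, mm9 chr2:151931050-151937314). Its levels were 41.7, 45.3 and 50.5 CPM in the lowest, median and highest control, 38.2, 40.2 and 44.3 with celecoxib and 38.6, 43.8 and 47.9 with rofecoxib. All 8 celecoxib libraries lay below the control mean, yet the ranges overlapped and the test just missed (log2 fold change -0.18 ± 0.05 SE, edgeR adjusted p = 0.0569). It passed with the GC offset (-0.18, edgeR adjusted p = 0.041), as did the difference between the drugs (-0.15, adjusted p = 0.0467). Without rofecoxib 7 and 8, whose libraries share in the estimate of spread, the celecoxib value was -0.18 and passed (edgeR adjusted p = 0.0418). With rofecoxib against control the value was -0.10 ± 0.05 (edgeR adjusted p = 0.18). *Txnrd1*, the cytosolic thioredoxin reductase (ENSMUSG00000020250, mm9 chr10:82296494-82360671), was at 84.4 ± 2.72 CPM in control, 82.0 ± 3.31 with celecoxib and 84.7 ± 2.68 with rofecoxib (SD, n = 8). Its 95% intervals against control were -0.11 to 0.02 and -0.06 to 0.07 on the log2 scale.

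*Hmox1*, the inducible haem oxygenase (ENSMUSG00000005413, mm9 chr8:77617288-77624697), had the same mean in all groups but not the same spread. It was at 12.1 ± 1.72 CPM in control, 11.9 ± 1.62 with celecoxib and 12.1 ± 4.55 with rofecoxib (SD, n = 8). Rofecoxib 7 and 8 were at 16.3 and 21.8 CPM, while the other 6 rofecoxib libraries lay between 9.19 and 10.6. None of the 3 comparisons was called with all libraries, at log2 fold changes of -0.03 ± 0.15 and 0.00 ± 0.15 against control and -0.03 ± 0.15 between the drugs. Without rofecoxib 7 and 8 the value with rofecoxib against control was -0.30 (edgeR adjusted p = 0.138), and that between the drugs was 0.27 (adjusted p = 0.0793), so the direction turned and the test was still missed. Rofecoxib 7 and 8 also had the highest summed white and general adipocyte markers of their group, at 3643 and 3400 CPM, and the lowest GC slopes. The part of either in the *Hmox1* levels was not tested.

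*Osgin1* showed the largest fold change of the members. It encodes an oxidative stress-induced growth inhibitor (ENSMUSG00000074063, mm9 chr8:121957822-121970358). Its level was 6.5, 7.68 and 9.97 CPM in the lowest, median and highest control, 5.30, 6.75 and 10.2 with celecoxib, and 4.41, 4.90 and 5.65 with rofecoxib. All rofecoxib libraries lay below all controls, and celecoxib overlapped both. *Osgin1* fell by 37.1% with rofecoxib (log2 fold change -0.67 ± 0.12 SE, 95% interval -0.93 to -0.41, edgeR adjusted p = 0.00918). Groups without overlap in this direction were found in 0.367% of all genes. It was 48.7% higher with celecoxib than with rofecoxib (0.57 ± 0.13, edgeR adjusted p = 0.00375), and not called with celecoxib against control (-0.10 ± 0.12, adjusted p = 0.731). The call against control held in all 24 fits that left out 1 library. Without both rofecoxib 7 and 8 the value was -0.63 and missed the threshold (edgeR adjusted p = 0.0542), while all genes called in that comparison went from 766 to 37. With the GC offset it was -0.52 (edgeR adjusted p = 0.0204) against control and 0.37 (adjusted p = 0.0279) between the drugs. Between 93 and 219 counts per library lay behind these levels, the fewest among the tested members.

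*G6pdx* encodes glucose-6-phosphate dehydrogenase, which makes NADPH in the pentose phosphate pathway (ENSMUSG00000031400, mm9 chrX:71654620-71674735). It ran from 55.3 over a median of 59.1 to 91.6 CPM in control, from 47.9 over 53.4 to 57.5 with celecoxib and from 48.3 over 51.8 to 53.5 with rofecoxib. Rofecoxib lay wholly below control, as it did in 0.367% of all genes, and control 6 alone was above 63.5 CPM. *G6pdx* fell by 18.9% with rofecoxib (log2 fold change -0.30 ± 0.07 SE, edgeR adjusted p = 0.0259). With celecoxib it was 16.1% lower than control in the fit, which missed the threshold (-0.25 ± 0.07, edgeR adjusted p = 0.0814). Without control 6, both comparisons passed at smaller values, at -0.20 with rofecoxib (edgeR adjusted p = 0.012) and -0.16 with celecoxib (adjusted p = 0.0404). The rofecoxib call was lost without control 7 (edgeR adjusted p = 0.0545), without rofecoxib 7 and 8 (-0.31, adjusted p = 0.0817) and with the GC offset (-0.25, adjusted p = 0.0606). Without all 3 libraries that stood apart, it was the 1 member called with rofecoxib (-0.21, edgeR adjusted p = 0.0398). The drugs differed by 0.05 (95% interval -0.10 to 0.20, edgeR adjusted p = 0.678). The gene overlaps *Ikbkg* (771 to 1167 counts per library), which was not called in any comparison, and reads of the overlap cannot be assigned to 1 gene, since whether counting used strand is not stated in the labels.

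**Figure D2:**
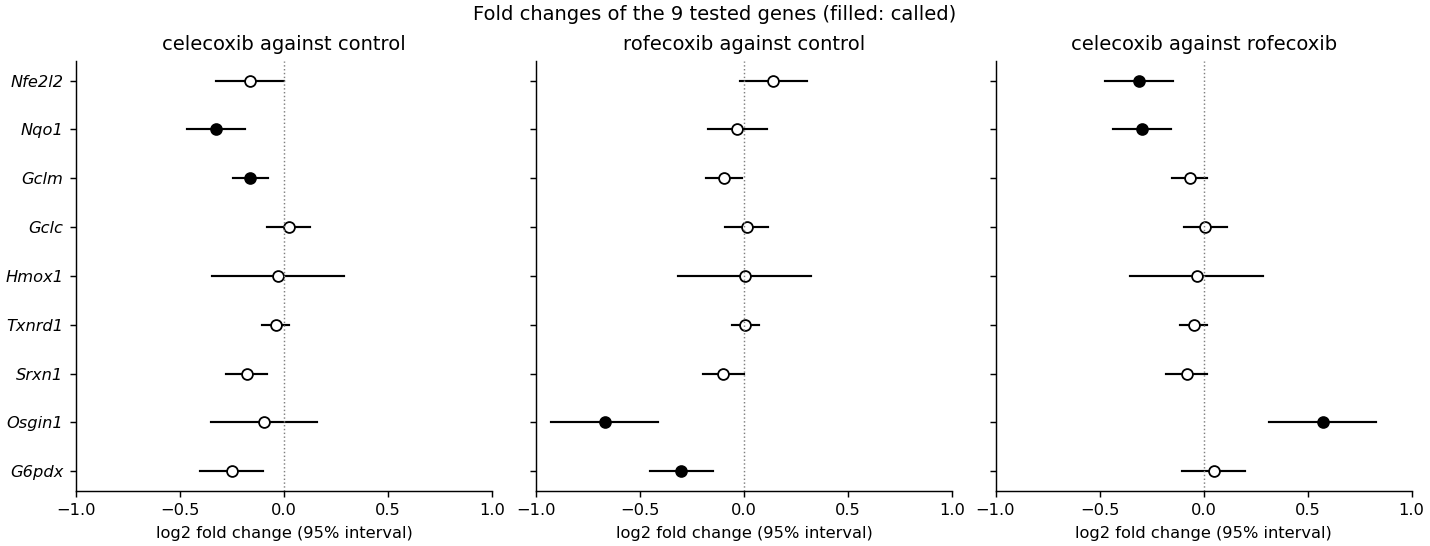
Log2 fold changes of the 9 tested genes (points) with 95% intervals (lines) in the 3 comparisons, with filled points called at an adjusted p under 0.05. *Nqo1* and *Gclm* are called with celecoxib, *Osgin1* and *G6pdx* with rofecoxib, and *Nfe2l2*, *Nqo1* and *Osgin1* between the drugs.

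The members did not vary as 1 block from library to library. With each group's mean removed, Pearson's r of log2 CPM over the 24 libraries ran from -0.51 (*Osgin1* and *Nfe2l2*) to 0.46 (*Gclc* and *Nfe2l2*) over the 36 pairs. Without control 6 the range was -0.49 (the same pair) to 0.61 (*Txnrd1* and *Nqo1*, 0.35 with it). *Nfe2l2* and *Nqo1* had an r of 0.43, and 0.16 without control 6. *Srxn1* and *Nqo1* went from 0.16 to 0.46 without it, and *G6pdx* and *Nqo1* from -0.37 to 0.38. The tested genes outside the set with the most similar pattern over these 24 libraries were other genes for each member. They were *BC031781* (r = 0.89), *Extl2* (0.87) and *Lrrc17* (0.86) for *Nfe2l2*, and *Tmem43* (0.83), *Itih2* (0.82) and *Dstn* (0.79) for *Nqo1*. For *Gclm* they were *Bmi1* (0.79), *Clec12b* (0.74) and *Fbxl5* (0.73), and for *Osgin1* *Bola2* (0.84), *Arrb2* (0.83) and *Ostf1* (0.83). For *G6pdx* they were *Tkt* (0.94), *Hibadh* (0.94) and *Pdha1* (0.94), where *Tkt* encodes transketolase of the same pentose phosphate pathway. Without control 6, r was 0.74, 0.72 and 0.73 for these 3 genes of *G6pdx*, and for *Nqo1* it was 0.73, 0.71 and 0.70. These are descriptions of libraries that share tissue makeup and depth. *Osgin1* and *Nfe2l2*, the pair with the lowest r, went with the GC slope of a library in opposite directions (r = 0.67 and -0.57). The part of this in the r of that pair was not tested.

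The adipocyte score and the GC slope of each library were set against each member with the group means removed, which made 9 relations per measure and 18 in all. The adipocyte score is the mean log2 CPM of the 10 white and general adipocyte markers. It rose with *Hmox1* (r = 0.64, Spearman's rho = 0.66, permutation p adjusted over 9 relations 0.0018 for r and 0.0081 for rho) and with *G6pdx* (r = 0.70, rho = 0.55, permutation p adjusted 0.0018 and 0.0218). Within control, celecoxib and rofecoxib, r was 0.68, 0.76 and 0.76 for *Hmox1* and 0.83, 0.70 and 0.22 for *G6pdx*. Without the 2 libraries farthest from the median score, controls 4 and 6, r was 0.64 for *Hmox1* and 0.51 for *G6pdx*. The other 7 members did not pass, with r from -0.46 (*Nqo1*, permutation p adjusted 0.147) to 0.16 (*Gclm*). Each of these 7 had r of both signs within the groups. In the same order of groups, r was -0.83, 0.53 and -0.45 for *Nqo1* and -0.52, 0.48 and 0.68 for *Gclm*. For *Srxn1* it was 0.44, 0.64 and -0.93.

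The GC slope, added after the data were seen, went with *Osgin1* (r = 0.67, rho = 0.70, permutation p adjusted 0.00234 for r and 0.00324 for rho) and against *Nfe2l2* (r = -0.57, rho = -0.57, permutation p adjusted 0.0135 and 0.0298). The slope is itself fitted to gene levels on transcript GC fraction, which was 0.593 for *Osgin1* and 0.468 for *Nfe2l2*. Genes of higher GC therefore tend to follow it and genes of lower GC to oppose it by construction. These p-values thus show no relation particular to the 2 genes. Within control, celecoxib and rofecoxib, r was 0.70, 0.76 and 0.66 for *Osgin1* and -0.71, -0.84 and -0.24 for *Nfe2l2*. Without the 2 farthest libraries, rofecoxib 7 and 8, r was 0.75 and -0.65. No other member passed, with r from -0.48 (*Gclc*) to 0.49 (*Srxn1*), each at a permutation p adjusted of 0.0543. Within the 3 groups r of *Hmox1* was 0.40, 0.09 and -0.88. The median GC slope was 0.10 in control, 0.89 with celecoxib and -0.91 with rofecoxib. With the GC offset the difference between the drugs went from 0.57 to 0.37 for *Osgin1*, which kept its call, and from -0.31 to -0.24 for *Nfe2l2*, which lost it.

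**Figure D3:**
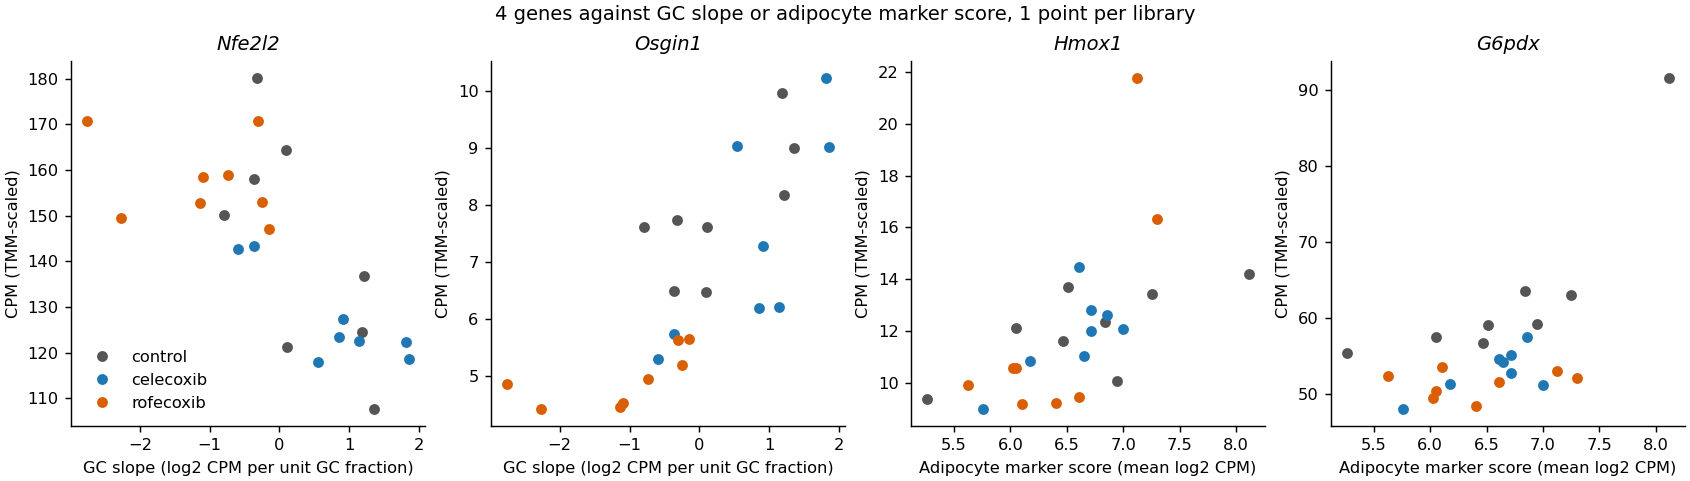
Levels in CPM scaled by TMM of *Nfe2l2* and *Osgin1* against the GC slope of a library (log2 CPM per unit GC fraction), and of *Hmox1* and *G6pdx* against its adipocyte marker score (mean log2 CPM), with 1 point per library coloured by group. Rofecoxib 7 and 8 lie at slopes of -2.27 and -2.75, and control 6 lies at a score of 8.11 with 91.6 CPM of *G6pdx*.

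Around the members, *Maff* and *Mafk*, small MAF partners of NRF2, were the regulators called with celecoxib against control, and the small MAF *Mafg* was not called. Of 13 regulators, 2 rose with celecoxib against control and 0 fell, where 0.913% of all genes were called higher and 0.498% lower. *Maff* was at 29.8 ± 1.92 CPM in control, 39.8 ± 5.49 with celecoxib and 32.3 ± 2.80 with rofecoxib (SD, n = 8), and rose by 33.5% with celecoxib (log2 fold change 0.42 ± 0.07 SE, edgeR adjusted p = 0.0101). *Mafk*, another small MAF, rose by 19.8% (0.26 ± 0.06, edgeR adjusted p = 0.0391), a call lost in 11 of the 24 fits without 1 library, among them that without control 6 (0.24, adjusted p = 0.0537), and with the GC offset (0.23, adjusted p = 0.0722). *Keap1* was not called against control with either drug. The list's median log2 fold change was 0.01 with celecoxib and 0.11 with rofecoxib. With rofecoxib, where 2.43% of all genes were called higher and 2.87% lower, 1 regulator rose and 0 fell. This was *Btrc*, which encodes a ubiquitin ligase subunit that can also target NRF2 (0.18 ± 0.04, edgeR adjusted p = 0.0178). The *Btrc* call was lost with the GC offset (0.068, edgeR adjusted p = 0.389) and without rofecoxib 7 and 8 (0.18, adjusted p = 0.075).

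Between the drugs, where 11.5% of all genes were called higher with celecoxib and 11.2% lower, 4 of 13 regulators were higher and 2 lower. Their list median was -0.03. The higher ones were *Keap1* (log2 fold change 0.18), *Mafg* (0.16), *Maff* (0.30) and *Mafk* (0.20), and the lower ones were *Btrc* (-0.24) and *Bach1* (-0.38), which encodes a repressor that competes with NRF2 for its sites. None of these 6 calls was kept with the GC offset, and those of *Keap1* (0.12), *Mafk* (0.16) and *Bach1* (-0.30) were also lost without rofecoxib 7 and 8 (edgeR adjusted p = 0.141, 0.134 and 0.124).

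Glutathione use and thioredoxin genes gave few calls. Of 20 tested glutathione genes, 0 were called with either drug against control by edgeR, with 3 and 1 at an unadjusted p under 0.05 and list medians of -0.06 and -0.08. Between the drugs 1 was lower with celecoxib, the glutathione transferase gene *Gstm2* (log2 fold change -0.12 ± 0.04 SE, edgeR adjusted p = 0.028). Of 13 thioredoxin and peroxiredoxin genes, 0 were called against control by edgeR, with 4 and 0 at an unadjusted p under 0.05. Their list medians were -0.08 with celecoxib and -0.05 with rofecoxib. Between the drugs 1 was lower with celecoxib, *Glrx*, which encodes a glutaredoxin (-0.22 ± 0.07, edgeR adjusted p = 0.0306). Over all genes, 11.2% were called lower with celecoxib than with rofecoxib. Without rofecoxib 7 and 8 both calls were lost (edgeR adjusted p = 0.0868 for *Gstm2* and 0.0887 for *Glrx*), and that of *Glrx* was lost with the GC offset too (-0.14, adjusted p = 0.206).

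The 8 genes of NADPH supply had the lowest list medians of the pathway, at -0.24 with celecoxib and -0.31 with rofecoxib. Without control 6 these medians were -0.12 and -0.17. In each comparison 1 of 8 was called lower, where 0.498% of all genes were with celecoxib and 2.87% with rofecoxib. The medians of the white and general adipocyte markers were -0.37 and -0.36, and -0.065 and -0.032 without control 6. Those of the brown adipocyte markers were -0.75 and -0.57, and -0.25 and -0.087 without it. The part of fat tissue in the NADPH medians was not tested. *Me1*, the cytosolic malic enzyme, was at 368 CPM in control 6, the library rich in adipocyte markers, and at a control median of 141. *Me1* fell with celecoxib at a log2 fold change of -0.73 ± 0.19 (edgeR adjusted p = 0.0479), which was -0.44 without control 6 (adjusted p = 0.0195), and the call was lost in 21 of the 24 fits without 1 library, with the GC offset (-0.70, adjusted p = 0.0571) and without rofecoxib 7 and 8 (-0.73, adjusted p = 0.0602). With rofecoxib *H6pd*, the hexose-6-phosphate dehydrogenase of the endoplasmic reticulum, fell by 18.2% (-0.29 ± 0.06, edgeR adjusted p = 0.0147). This call was lost with the GC offset (-0.16, edgeR adjusted p = 0.200) and without rofecoxib 7 and 8 (-0.28, adjusted p = 0.0675). *H6pd* was 27.4% higher with celecoxib than with rofecoxib (0.35 ± 0.06, edgeR adjusted p = 0.00127), a call lost with the GC offset (0.20, adjusted p = 0.0668).

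Detoxification enzymes gave calls in the direction of lower levels with celecoxib. Of 15 tested, 2 fell with celecoxib and 0 rose, where 0.498% of all genes were called lower and 0.913% higher. The list median was -0.16. *Nqo2*, a second quinone reductase, fell by 14.0% (log2 fold change -0.22 ± 0.05 SE, edgeR adjusted p = 0.0374), and *Aox1*, an aldehyde oxidase, by 21.5% (-0.35 ± 0.09, adjusted p = 0.0429). These calls were lost in 9 and 14 of the 24 fits without 1 library, and that of *Nqo2* with the GC offset (-0.18, edgeR adjusted p = 0.0832). With rofecoxib 0 of 15 were called by edgeR, 2 were at an unadjusted p under 0.05, and the median was -0.03. Between the drugs 4 of the 15 were lower with celecoxib and 0 higher, where 11.2% of all genes were called lower and 11.5% higher. The 4 were *Nqo2* (-0.24), *Aox1* (-0.40), the export pump gene *Abcc1* (-0.25) and *Esd* (-0.13). *Aox1* and *Abcc1* kept that call with the GC offset.

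Haem and iron genes gave 0 of 7 calls against control with either drug by edgeR, with 4 and 2 at an unadjusted p under 0.05. Between the drugs 2 of 7 were called lower with celecoxib, where 11.2% of all genes were. They were *Hmox2*, the constitutive haem oxygenase (log2 fold change -0.14), and *Fech*, the ferrochelatase (-0.15). These calls were lost in 9 and 2 of the 24 fits without 1 library, and both with the GC offset. Of the 4 genes that remove superoxide and peroxide, 0 were called in any comparison by edgeR, with 1 in each at an unadjusted p under 0.05. *Sod2* was at -0.33 ± 0.14 with celecoxib (edgeR adjusted p = 0.219), and *Sod3* differed by 0.23 ± 0.09 between the drugs (adjusted p = 0.0529).

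The amino acid response of ATF4, a stress pathway that shares *Slc7a11* with NRF2, held the largest single change. *Mthfd2*, which encodes a mitochondrial folate enzyme, was at 12.8 ± 2.53 CPM in control, 22.9 ± 3.87 with celecoxib and 11.5 ± 2.31 with rofecoxib (SD, n = 8). It rose by 79.5% with celecoxib (log2 fold change 0.84 ± 0.13 SE, edgeR adjusted p = 0.0055), and all celecoxib libraries, from 18.1 CPM up, lay above all controls, which reached 16.2 (0.194% of all genes did so). It was the 1 gene of 12 called with celecoxib, where 0.913% of all genes were called higher and 0.498% lower. With rofecoxib, where 2.43% of all genes were called higher and 2.87% lower, 1 of 12 was called. This was *Atf4* itself (0.26 ± 0.06, edgeR adjusted p = 0.0231). The *Atf4* call was kept with the GC offset, and was lost without rofecoxib 7 and 8 (0.25, edgeR adjusted p = 0.0892) and in 2 of the 24 fits without 1 library, those without control 7 and without rofecoxib 7. Between the drugs, where 11.5% of all genes were called higher with celecoxib and 11.2% lower, 4 of 12 were higher and 0 lower. They were *Mthfd2* (0.99), *Trib3* (0.56), *Shmt2* (0.24) and *Slc7a5* (0.31), of which *Mthfd2* alone kept its call with the GC offset, and likewise without rofecoxib 7 and 8. The *Slc7a5* call was lost in 20 of the 24 fits without 1 library and that of *Trib3* in 6.

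**Figure D4:**
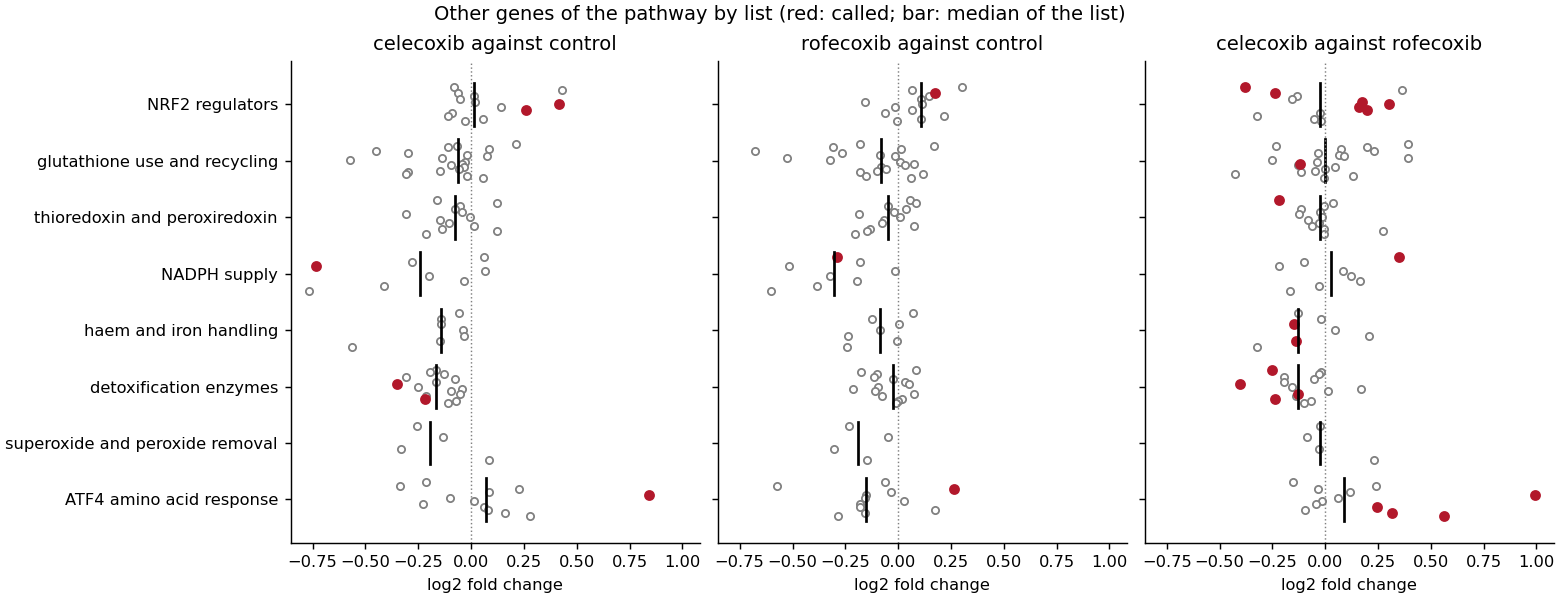
Log2 fold changes of the tested genes of 8 related lists (rows) in the 3 comparisons, with 1 point per gene, filled red where called at an adjusted p under 0.05, and a bar at the list's median. The NADPH list has medians of -0.24 and -0.31 against control, and *Mthfd2* is the point farthest to the right.

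Over the 8 lists, 6 genes were called with celecoxib, 3 with rofecoxib and 19 between the drugs. With the GC offset 3, 1 and 4 of these were still called, and without rofecoxib 7 and 8 it was 5, 0 and 11. The lists held 13, 20, 13, 8, 7, 15, 4 and 12 tested genes. Of all 14451 genes tested, 1.41%, 5.3% and 22.7% were called in the 3 comparisons. Cell type markers differed between groups as well. Of 10 smooth muscle markers, *Acta2*, *Tagln* and *Actg2* rose with each drug. With rofecoxib 3 of 12 macrophage and monocyte markers fell (*C1qc*, *Cd14* and *Fcer1g*), their summed level being 146 to 313 CPM beside 269 to 440 in control, and all 12 were above 0 in every library. With rofecoxib 2 of 10 fibroblast and adventitia markers fell (*Serpinf1* and *Col1a1*), their summed level being 6843 to 8130 CPM beside 7303 to 10886 in control. Over all genes, 0.913% were called higher with celecoxib, 2.43% higher with rofecoxib and 2.87% lower with rofecoxib. In edgeR, 6 smooth muscle markers with celecoxib and 7 with rofecoxib had an unadjusted p under 0.05. With rofecoxib so did all 12 macrophage and 6 fibroblast markers. Of all genes, 17.3% did with celecoxib and 27.1% with rofecoxib. Without rofecoxib 7 and 8, 0 macrophage, 0 fibroblast and 1 smooth muscle marker were called with rofecoxib. All genes called in that comparison went from 766 to 37. The medians of these 3 lists moved further from 0, from -0.48 to -0.59, from -0.25 to -0.31 and from 0.21 to 0.26. Without control 6 the counts called with rofecoxib were 0, 2 and 1, and 2 smooth muscle markers were called with celecoxib. The white and general adipocyte markers had 0 of 10 called against control with either drug by edgeR, with 1 and 0 at an unadjusted p under 0.05, and the brown ones 0 of 10, with 4 and 3. Without rofecoxib 7 and 8 the white and general median with rofecoxib against control went from -0.36 to -0.78. With the adipocyte score as a covariate, *G6pdx* was at -0.24 with rofecoxib against control (edgeR adjusted p = 0.0188). With celecoxib against control it was at -0.22 (edgeR adjusted p = 0.0321). The part of these cell types in the lower *Osgin1* and *G6pdx* was not tested further.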

How the data were processed

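TruSeq libraries of polyA RNA were built over 3 days, per the labels' protocols, and no label gives the day of a library. The numbers in the sample titles ran in separate blocks for celecoxib, rofecoxib and control, and the titles do not say what they count. If they follow the order of handling, its part cannot be told apart from that of the drug. The submitters' processing notes name CASAVA 1.8.2, STAR 2.5.1b and the mm9 build. Which counting tool, annotation and strand setting were used is not stated there. As deposited, the authors' table holds whole-number counts for 25941 genes. Library totals of 21652432 to 21687906 lie closer than raw totals usually do, and no source names a step that made them so. Drawing reads at random would cost only precision, whereas scaling and rounding would break what edgeR assumes of counts, and which was done is unknown. Each group has 8 biological replicates by the series' own account, but no label names an animal, so p-values may measure only the spread between these samples.

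Counts were fitted with edgeR 4.0.16 (R 4.3.3) over all 24 libraries with filterByExpr (14451 genes kept), TMM factors (0.959 to 1.03), a robust quasi-likelihood model with 1 mean per group and 21 residual degrees of freedom. Genes were called at a Benjamini-Hochberg adjusted p under 0.05. Each SE was taken as the size of the log2 fold change over the root of the F statistic. Levels are TMM-scaled CPM. The procedure was tested on simulated data for celecoxib against control. It recovered 65% of genes with a log2 change of 0.5 and 87.9% of those with 1, with 4 false calls. Smaller changes were not simulated. Alternatives were median-of-ratios size factors, library totals, no filter, a non-robust fit, a replicate block, a GC offset, both, an adipocyte score covariate, 2 groups only, limma-voom (limma 3.58.1), DESeq2 1.42.0 and leaving out libraries. The GC offset is a spline of each library's log2 CPM deviations on transcript GC content from GENCODE M21, which had a value for 97.4% of the genes tested. Relations between libraries used log2 CPM (prior count 2) and 100000 permutations within groups.

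The members, lists and tests were chosen with earlier results of these data known. The text names all members, every pathway list gene called in at least 1 comparison (otherwise up to 2 with the smallest p), and for each called member the 3 tested genes with the highest r. Marker genes named with their lists, *Ikbkg*, libraries left out together, and list medians and r without control 6 were added after values were seen.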

Additional observations from a re-analysis of the deposited data

Results flagged for a closer look

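*G6pdx* in control 6, at 91.6 CPM, lay far from the other 7 controls, which reached 63.5 CPM. The gap to the nearest control was 0.777 of the group's whole range, above Dixon's 95% critical value for 8 libraries. It was the 1 such value among 27 groups of 8 libraries (9 members in 3 groups), where chance alone gives about 1 in 20. Control 6 also had the highest adipocyte score, at 8.11 beside 5.26 to 7.25 in the other controls, and the part of this in its *G6pdx* level was not tested.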

How the results depend on the processing

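Counts of called members and of all genes moved by over 1.5 times under these settings. With celecoxib against control, the members went from 2 to 1 with no low-count filter, a replicate block, the block with the GC offset, only the 2 groups or limma-voom, and to 4 with DESeq2. All genes went from 204 to 86 (no filter), 316 (adipocyte score covariate), 88 (2 groups only) and 470 (DESeq2). With rofecoxib against control, the members went from 2 to 1 with only the 2 groups, 0 without rofecoxib 7 and 8 and 1 without these and control 6. All genes went from 766 to 294 (no filter), 148 (GC offset), 107 (block with GC offset, 61 higher and 46 lower), 461 (2 groups only), 1584 (DESeq2), 37 and 55 (both library sets left out). Between the drugs, the members went from 3 to 1 (block with GC offset), and all genes from 3275 to 1201 (GC offset), 1287 (block with GC offset), 1326 and 1758 (both library sets left out). Leaving out 1 library gave 0 to 3, 1 to 2 and 3 members in the 3 comparisons, and 42 to 312, 170 to 1121 and 2147 to 3739 genes. Whether the replicate numbers pair the samples could not be settled from their correlation. Over 24 same-numbered pairs, r of the deviations was -0.39 to 0.32 with 10 over 0.1. Its median was 0.043, beside 0.0028 for pairs with other numbers across groups. Of 24 libraries, 5 correlated best with their own number. With the block alone, 1 called member was lost, *Gclm* with celecoxib (edgeR adjusted p = 0.0696). Uncalled log2 fold changes near 0 turned sign. With celecoxib against control these were *Gclc* (-0.0013 without the 3 libraries) and *Hmox1* (0.0082 with the adipocyte covariate, 0.0026 without the 3). With rofecoxib against control they were *Gclc* (-0.021 with the GC offset, -0.022 with block and GC offset, -0.013 without rofecoxib 7 and 8, -0.030 without the 3) and *Txnrd1* (-0.0016 with library totals). *Hmox1* there was -0.0022 with median-of-ratios factors, -0.0020 with library totals, -0.0052 with no filter, -0.045 with the block, -0.054 with limma-voom, -0.0036 with DESeq2, -0.30 without rofecoxib 7 and 8 and -0.26 without the 3. Between the drugs they were *Gclm* (0.068 with the GC offset, 0.068 with block and GC offset), *Gclc* (-0.0066 with library totals) and *G6pdx* (-0.0012 and -0.0037 with these offsets). *Hmox1* there was 0.0023 with the block, 0.024 with limma-voom, 0.27 without rofecoxib 7 and 8 and 0.26 without the 3. Leaving out 1 library gave *Hmox1* -0.084 to 0.019, -0.17 to 0.057 and -0.087 to 0.14 in the 3 comparisons, and with rofecoxib *Nqo1* -0.073 to 0.0048, *Gclc* -0.023 to 0.040 and *Txnrd1* -0.016 to 0.020. Between the drugs it gave *Gclc* -0.013 to 0.044. Without control 6, r with the adipocyte score turned to 0.048 for *Nfe2l2*, 0.061 for *Gclc*, -0.12 for *Txnrd1* and -0.21 for *Srxn1*. The cause of these changes was not tested.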
